A study of Mus musculus with 15 samples.

Results

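Gene expression of mouse embryonic stem (ES) cells after 60 min in fetal bovine serum (FBS) was set against that after 30 min, an interval in which early serum-induced transcripts are looked for. The comparison uses 6 of the 15 arrays of the series, chosen by their titles. The 60 min group holds the Srf-null line (E100-/-), the rescue line (E100-/- rescue) and the wild-type line (E14wt), and the 30 min group holds those 3 lines again, 1 array per line and time. All 6 samples are total RNA of ES cells kept in FBS for the stated time, hybridised to Affymetrix MGU74A arrays, and the remaining arrays cover 0, 10 and 180 min. The labels do not say how Srf was inactivated or restored, whether each mutant line is 1 clone, or whether cells were starved first. The 3 lines stand as replicates of a time although they differ in genotype, nothing says that separate cultures were used, and p-values therefore measure the spread between lines.

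Serum growth factors reach the nucleus through MAP kinases and through actin dynamics, and the first genes to respond, the immediate-early genes, need no new protein to be switched on. Serum response factor (SRF) binds the CArG box in many of their promoters, with ternary complex factors such as ELK1 for genes like Egr1 and Fos, or with the actin-sensing MRTF cofactors for cytoskeletal genes. Many immediate-early products are transcription factors, phosphatases and RNA-binding proteins that drive or end the response, and ES cells lacking Srf are known for weak immediate-early induction and a poorly formed actin cytoskeleton.

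Before any comparison, 2 of the 6 arrays stood apart. The 18S ribosomal RNA control probe set read 24382 in Srf-null, 1473 in rescue and 1195 in wild-type cells at 60 min, against 2744, 481 and 22707 at 30 min. The Srf-null 60 min and wild-type 30 min arrays were thus high, so that these 2 lines differed between the times in opposite ways and only the rescue pair lay on 1 side. Actin signal at the 3′ end over that at the 5′ end was 3.83 on the Srf-null 60 min array and 0.867 to 1.64 on the other 5. The share of probe sets at or below 0 was 41.6% and 39% in Srf-null cells at 60 and 30 min and 24.9% to 27.2% on the other 4 arrays. The part of these differences in the results was not tested beyond the values given beside them and the fits with the 18S signal as a term, described under processing. No probe set was annotated to Srf, so the targeted gene itself was not analysed here.

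No probe set passed the paired test. Of 8461 probe sets tested, 0 (0%) were called at 60 against 30 min by limma with Benjamini-Hochberg adjustment, against 336 (3.97%) at an unadjusted p under 0.05. Of these 178 (2.1%) were higher and 158 (1.87%) lower at 60 min, and the smallest adjusted p was 0.943. The paired fit left 2 residual degrees of freedom. An additive model of line and time over the 12 arrays from 10 min on called 2 probe sets, both higher at 60 min: Rhob and Dusp1, at an adjusted p of 0.0326 each. Because of the empty list of calls, genes are described below by their values, by whether the 2 groups of 3 arrays overlap, and by counts set beside the same counts over all probe sets. Intensities are quantile-normalized, and the 30 min values follow the same order of lines as the 60 min values. A change is a log2 difference with values under the floor of 84.98 raised to it. In bulk RNA fewer cells of a type and less RNA per cell cannot be told apart.

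Among the feedback regulators, the genes that limit a serum response, Rhob and Dusp1 had the smallest unadjusted p-values. Rhob, a small GTPase that organises actin and endosomes, read 1452 in Srf-null, 3724 in rescue and 3203 in wild-type cells at 60 min, against 641, 956 and 969.7 at 30 min. Every 60 min array lay above every 30 min array, and the log2 changes were 1.18 in Srf-null, 1.96 in rescue and 1.72 in wild-type cells, with a mean of 1.62 ± 0.22 (SE, n = 3 pairs). Dusp1, the phosphatase that switches off MAP kinases, read 2988 in Srf-null, 5001 in rescue and 4263 in wild-type cells at 60 min, against 1228, 2249.5 and 1077 at 30 min. Its groups did not overlap either, with changes of 1.28 in Srf-null, 1.15 in rescue and 1.99 in wild-type cells and a mean of 1.47 ± 0.21 (SE, n = 3 pairs). At 0 min, outside the comparison, Dusp1 read 942 in Srf-null, 5029 in rescue and 1675 in wild-type cells, and Rhob 594, 3362 and 684. The rescue array at 0 min thus lay near its 60 min level for both genes. Actin 3′ over 5′ signal on the 0 min arrays was 2.94 in Srf-null, 4.22 in rescue and 7.53 in wild-type cells. Zfp36, the RNA-binding protein tristetraprolin that destabilises AU-rich messages, read 768 in Srf-null, 1529.7 in rescue and 2062 in wild-type cells at 60 min, against 343, 409 and 215 at 30 min. The groups were apart, the changes were 1.16 in Srf-null, 1.90 in rescue and 3.26 in wild-type cells, and the mean was 2.11 ± 0.47 (SE, n = 3 pairs). At 0 min Zfp36 read -10.2 in Srf-null, 449 in rescue and -0.1 in wild-type cells.

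Read by their brightest probe set, these 3 genes, with Atf3 and Plaur below, were the early genes at least 2-fold higher at 60 min in each of the 3 lines. Of 8461 probe sets, 25 (0.295%) showed that pattern. The 250 bases before the start of each of these 5 genes are shown because the genes share that pattern, from RefSeq on build GRCm38.p6, 5′ to 3′ on the gene's strand, in lower case. Capitals mark a CArG box in Zfp36 and the cyclic AMP response element TGACGTCA in Dusp1.
Zfp36, chr7:28379229-28379478 (-): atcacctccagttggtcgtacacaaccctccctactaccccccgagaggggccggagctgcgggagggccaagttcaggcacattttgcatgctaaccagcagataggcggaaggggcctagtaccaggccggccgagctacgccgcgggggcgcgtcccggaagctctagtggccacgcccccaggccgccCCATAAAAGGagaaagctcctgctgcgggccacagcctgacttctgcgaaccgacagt
Dusp1, chr17:26508473-26508722 (-): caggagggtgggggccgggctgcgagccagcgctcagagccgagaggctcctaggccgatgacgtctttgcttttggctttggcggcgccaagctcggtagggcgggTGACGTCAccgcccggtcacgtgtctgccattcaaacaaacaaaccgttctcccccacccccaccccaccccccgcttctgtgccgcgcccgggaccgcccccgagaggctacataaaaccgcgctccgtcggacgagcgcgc
Rhob, chr12:8500010-8500259 (-): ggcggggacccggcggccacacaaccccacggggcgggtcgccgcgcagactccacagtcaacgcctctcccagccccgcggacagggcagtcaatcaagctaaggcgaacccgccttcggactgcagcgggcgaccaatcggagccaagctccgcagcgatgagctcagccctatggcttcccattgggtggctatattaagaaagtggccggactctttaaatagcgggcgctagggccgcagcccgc
Atf3, chr1:191183334-191183583 (-): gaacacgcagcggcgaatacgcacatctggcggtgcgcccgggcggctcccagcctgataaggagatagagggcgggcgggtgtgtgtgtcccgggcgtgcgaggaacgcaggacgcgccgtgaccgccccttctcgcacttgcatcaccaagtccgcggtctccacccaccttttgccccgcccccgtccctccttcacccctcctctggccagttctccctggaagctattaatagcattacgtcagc
Plaur, chr7:24462233-24462482 (+): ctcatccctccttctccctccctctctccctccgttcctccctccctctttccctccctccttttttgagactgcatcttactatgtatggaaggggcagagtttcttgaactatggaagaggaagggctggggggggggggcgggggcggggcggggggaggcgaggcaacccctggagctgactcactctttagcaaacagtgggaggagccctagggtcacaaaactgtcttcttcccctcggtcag
The CArG box was searched by its usual consensus on both strands, in which it reads alike, and TGACGTCA is its own reverse complement. The CArG box of Zfp36, CCATAAAAGG, starts 58 bases before the transcription start, and TGACGTCA starts 143 bases before that of Dusp1. Windows of the same length hold a CArG box in 1.62% of 27025 RefSeq genes and TGACGTCA in 1.77%. Of 66 early-list genes tested, 53 matched a promoter, of which 2 (3.77%) held a CArG box, Egr2 and Zfp36, and 6 (11.3%) held TGACGTCA: Btg2, Dusp1, Epha2, Errfi1, Maff and Plk2. A match is a string of letters in a window, and binding was not measured here.

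**Figure D1:**
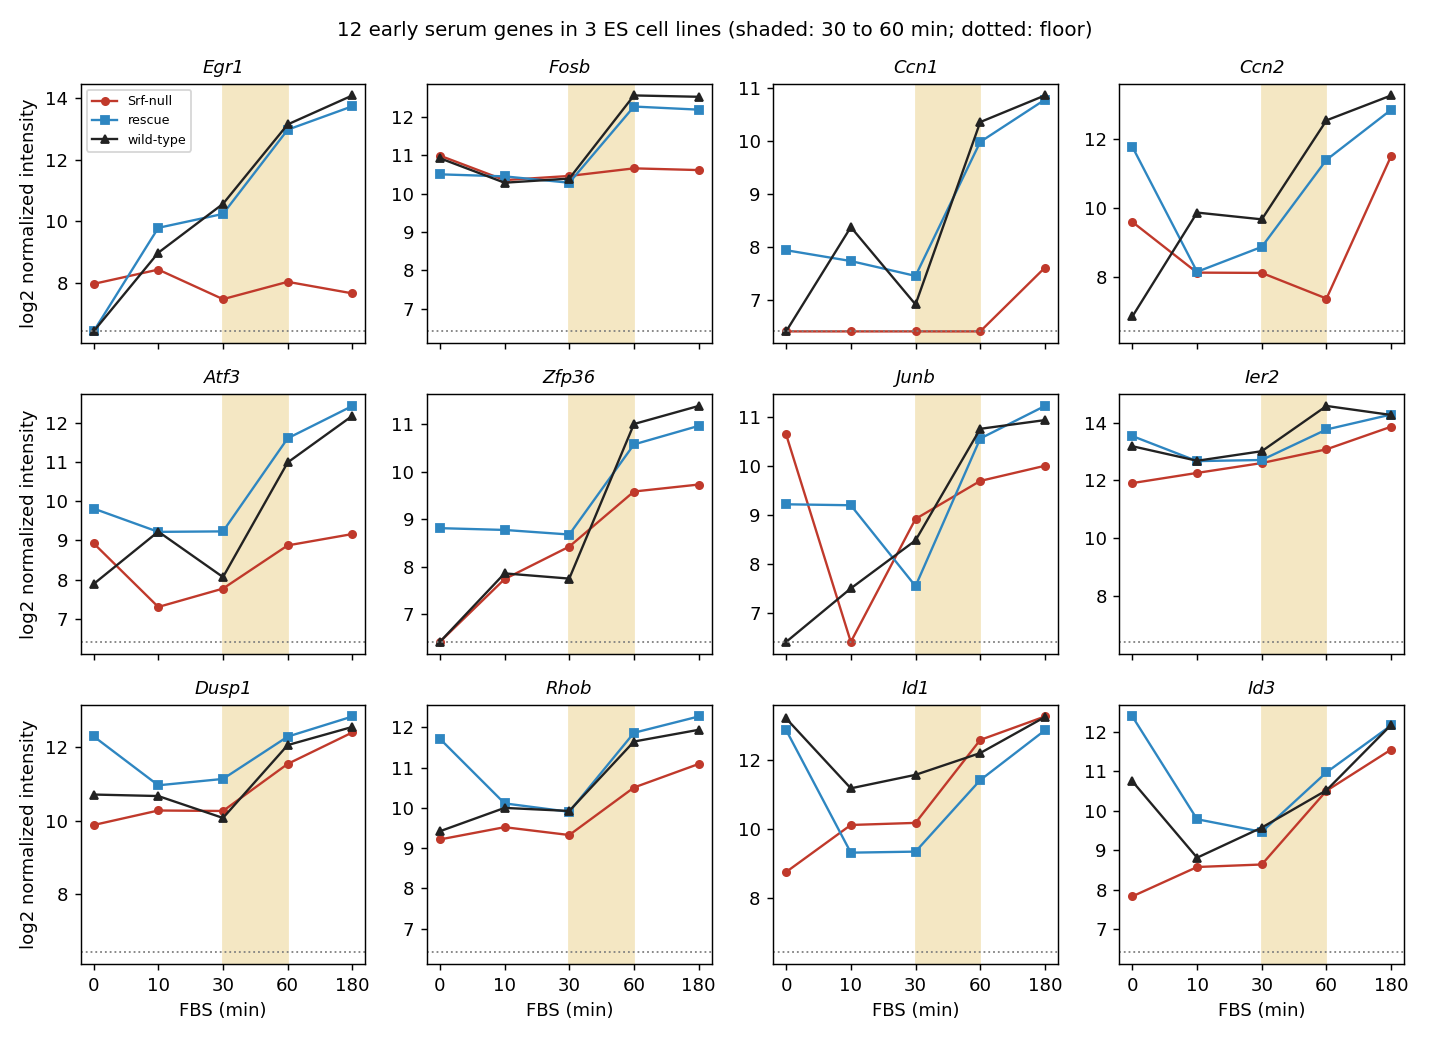
Log2 normalized intensity of 12 early genes (vertical axes) by minutes in FBS (horizontal axes, equally spaced categories), 1 point per array: Srf-null red circles, rescue blue squares, wild-type black triangles. The shaded band is the step from 30 to 60 min and the dotted line the floor; Egr1, Fosb, Ccn1 and Ccn2 are higher at 60 min in rescue and wild-type cells, while within the band the red lines move by less than 1 log2 unit; Ccn1 and Ccn2 are higher in Srf-null cells at 180 min.

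The early transcription factors included large changes in rescue and wild-type cells. Egr1, a zinc-finger factor and a standard SRF target, read 260.4 in Srf-null, 8094 in rescue and 9120.2 in wild-type cells at 60 min, against 176, 1208 and 1515 at 30 min. The rescue and wild-type lines were several-fold higher at 60 min and the Srf-null line was low at both times, so the groups overlapped. The changes were 0.57 in Srf-null, 2.74 in rescue and 2.59 in wild-type cells, with a mean of 1.97 ± 0.46 (SE, n = 3 pairs). Without the Srf-null pair, Egr1 was the 1 probe set that passed, at 2.67 ± 0.18 (SE, n = 2 pairs) and an adjusted p of 0.0463 by limma. A second Egr1 probe set was dim, at 60 min -17.6 in Srf-null, 181 in rescue and 202 in wild-type cells, against -69.1, -136 and 28.6 at 30 min.

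Fosb, a partner of Jun proteins in AP-1, read 1621 in Srf-null, 4956 in rescue and 6059 in wild-type cells at 60 min, against 1413, 1249.7 and 1347 at 30 min. The 3 lines lay within 1249.7 to 1413 at 30 min, and at 60 min the rescue and wild-type arrays were apart from Srf-null, with changes of 0.20 in Srf-null, 1.99 in rescue and 2.17 in wild-type cells. Junb read 829.7 in Srf-null, 1512 in rescue and 1735 in wild-type cells at 60 min, against 485, 187 and 358 at 30 min. On its other probe set the values were 205, 1717 and 3161 at 60 min, against 382, 407 and 173 at 30 min. The 2 Junb probe sets disagreed in Srf-null cells, where the first was higher and the second lower at 60 min. Jun, the core AP-1 subunit, was below the floor in all 3 lines at 30 min, and at 60 min it read 47.6 in Srf-null, 289 in rescue and 1174 in wild-type cells. Its level was above the floor only in the rescue and wild-type lines, so its log2 changes depend on the floor.

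Atf3, a stress- and serum-responsive repressor, read 469 in Srf-null, 3116 in rescue and 2033 in wild-type cells at 60 min, against 218, 600.4 and 268 at 30 min. It was higher at 60 min in each line, by 1.10 in Srf-null, 2.38 in rescue and 2.93 in wild-type cells, although the Srf-null 60 min value lay within the 30 min range. The other 2 probe sets of Atf3 were dimmer, with mean changes of 1.16 and 0.46, and did not share the rise in each line. The first read -31.2 in Srf-null, 463 in rescue and 309 in wild-type cells at 60 min, against -276, 152 and 31.6 at 30 min. It was under the floor in Srf-null cells at both times. The second read 446, 54.5 and 79.9 at 60 min, against 172, 59.8 and 41.7 at 30 min, above the floor only in Srf-null cells. Ier2, a short-lived nuclear regulator, read 8653 in Srf-null, 13924 in rescue and 24499 in wild-type cells at 60 min, against 6222, 6697 and 8271 at 30 min. Its groups were apart by a narrow margin, with changes of 0.48 in Srf-null, 1.06 in rescue and 1.57 in wild-type cells. Nr4a1, the orphan nuclear receptor Nur77, read 1244 in Srf-null, 1319 in rescue and 4000.2 in wild-type cells at 60 min, against 1209, 759.5 and 818 at 30 min. The wild-type array at 60 min stood out, and Srf-null cells differed little between the times.

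The Id genes, which encode helix-loop-helix inhibitors that in ES cells act downstream of BMP signals, had another order of lines. Id1 read 6141 in Srf-null, 2735 in rescue and 4716 in wild-type cells at 60 min, against 1155, 647 and 3041 at 30 min. Its changes were 2.41 in Srf-null, 2.08 in rescue and 0.63 in wild-type cells, so the Srf-null line had the largest and the wild-type line the smallest. Id3 read 1453 in Srf-null, 2009 in rescue and 1466 in wild-type cells at 60 min, against 398, 706 and 761 at 30 min, with groups apart and changes of 1.87 in Srf-null, 1.51 in rescue and 0.95 in wild-type cells. Id2 likewise did not overlap, with changes of 1.23 in Srf-null, 1.82 in rescue and 0.36 in wild-type cells. The wild-type 30 min and Srf-null 60 min arrays were those with high 18S signal, and within the rescue pair, on 1 side, Id1, Id2 and Id3 had changes of 2.08, 1.82 and 1.51. Outside the comparison, at 0 min, Id1 read 429.5 in Srf-null, 7495 in rescue and 9471 in wild-type cells. Id2 read 526, 10526 and 2216 there, and Id3 227.5, 5353 and 1714. In rescue and wild-type cells all 3 genes were thus higher at 0 min than at 60 min, and in Srf-null cells lower. Cebpb, a leucine-zipper factor, and Klf6, a zinc-finger factor, had changes of 1.91 in Srf-null, 1.10 in rescue and 0.77 in wild-type cells and of 0.90 in Srf-null, 1.41 in rescue and 0.33 in wild-type cells, both with groups apart. At 0 min Klf6 read 1331 in Srf-null, 4231 in rescue and 618 in wild-type cells, where the rescue value at 60 min was 3110.5.

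Other textbook members were dim or differed between lines. Fos, the best-known immediate-early gene, was dim on the 6 arrays compared but higher at 60 min in each line. It read 164 in Srf-null, 162 in rescue and 136 in wild-type cells at 60 min, against 5.1, 144 and -40.1 at 30 min. Of these 2 times only 60 min had every array above the floor. Outside the comparison, Fos read 47.7 in Srf-null, 89.8 in rescue and 523 in wild-type cells at 0 min. Its values at 10 min were 231.5, 62.9 and 93.7. Egr2 had changes of 4.33 in Srf-null, 0 in rescue and 1.40 in wild-type cells. Those of Ier3, a regulator of cell survival, were 5.01 in Srf-null, -0.47 in rescue and -3.30 in wild-type cells, and those of Klf2, a Kruppel-like factor, 1.19 in Srf-null, -0.72 in rescue and -1.83 in wild-type cells. These 3 genes disagreed between lines in size or sign, and for Ier3 and Klf2 the extremes came from the Srf-null and wild-type lines, whose 18S signal differed between the times. Myc had changes of 0.57 in Srf-null, 0.64 in rescue and -0.42 in wild-type cells, and Fosl1 was below the floor on all 6 arrays.

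**Figure D2:**
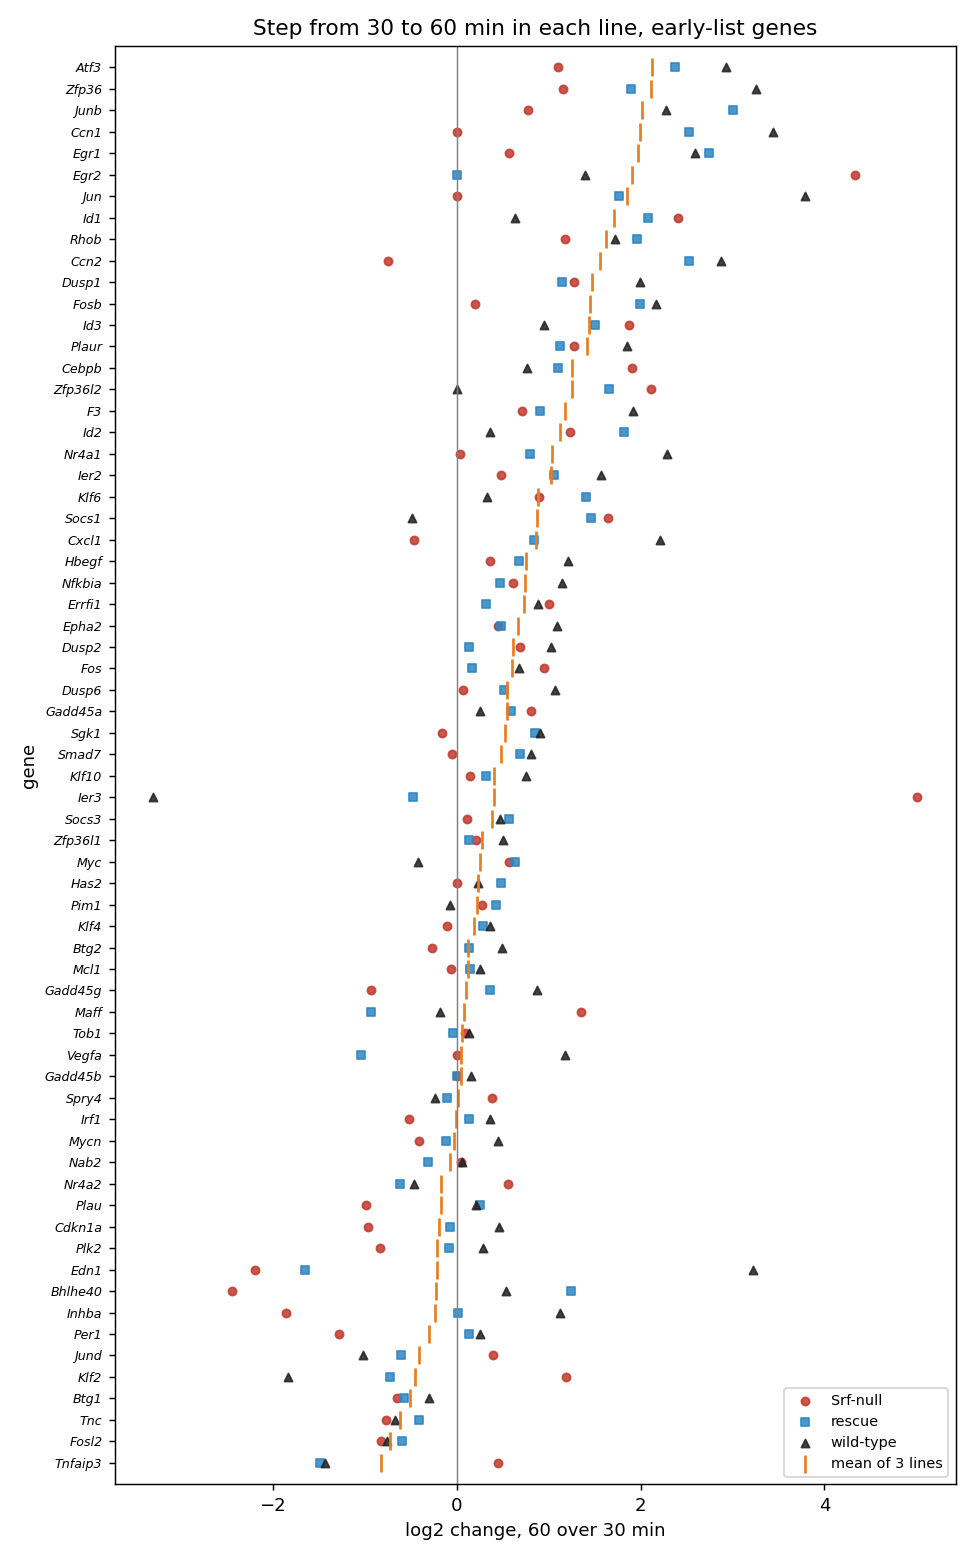
Log2 change at 60 over 30 min (horizontal axis) of the 66 tested genes of the 3 early lists (vertical axis, ordered by mean), 1 point per line: Srf-null red circles, rescue blue squares, wild-type black triangles, with the mean of the 3 lines as an orange bar. From Atf3 (mean 2.13) downward the red circles lie left of both other symbols for Atf3, Zfp36, Junb, Ccn1, Egr1, Jun, Rhob, Ccn2, Fosb, Nr4a1 and Ier2, among others, and right of them for Egr2, Id1, Id3 and Cebpb, among others.

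Among early secreted and surface proteins, Ccn1 and Ccn2 separated Srf-null from the other 2 lines. Ccn1, a matricellular protein and CArG-dependent serum gene, read -47.8 in Srf-null, 1014 in rescue and 1314 in wild-type cells at 60 min, against 42.2, 176 and 121 at 30 min. It was below the floor in Srf-null cells at both times and higher at 60 min in rescue and wild-type cells by 2.53 and 3.44. Ccn2, connective tissue growth factor, read 165 in Srf-null, 2703 in rescue and 5990.3 in wild-type cells at 60 min, against 276, 467 and 814 at 30 min. The Srf-null line was lower at 60 min and the other 2 lines were higher, with changes of -0.75 in Srf-null, 2.53 in rescue and 2.88 in wild-type cells. Plaur, the urokinase receptor, read 1924 in Srf-null, 506 in rescue and 663 in wild-type cells at 60 min, against 792, 232 and 184 at 30 min. It was higher at 60 min in each line, by 1.28 in Srf-null, 1.13 in rescue and 1.85 in wild-type cells, but the groups overlapped because the Srf-null array at 30 min exceeded the rescue and wild-type arrays at 60 min. Hbegf, an EGF receptor ligand, had changes of 0.36 in Srf-null, 0.68 in rescue and 1.21 in wild-type cells, and Epha2, an ephrin receptor, of 0.45 in Srf-null, 0.48 in rescue and 1.09 in wild-type cells.

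By list, 26 of 36 early transcription factors were on the array and tested, and 13 of these were higher at 60 min in each line, beside 878 of 8461 probe sets (10.4%). The count lower in each line was 1, Fosl2, beside 902 probe sets (10.7%). The early factors whose groups of arrays did not overlap numbered 9, all higher, beside 306 probe sets (3.62%) that were higher without overlap and 291 (3.44%) lower. An unadjusted p under 0.05 by limma with a higher value at 60 min was seen for 10 of them, beside 178 probe sets (2.1%). These were Atf3, Cebpb, Egr1, Fosb, Id1, Id2, Id3, Ier2, Junb and Klf6. The median change of the early factors was 0.74, beside -0.01 over 6156 genes read by 1 probe set each. Of those 6156 genes, 687 (11.2%) were higher and 682 (11.1%) lower in each line. Higher values without overlap were seen for 229 (3.72%) of them, and with an unadjusted p under 0.05 for 143 (2.32%). Of 35 feedback regulators 27 were tested, with 10 higher in each line, 7 higher without overlap, 1 lower without overlap and a median of 0.39. Btg1, an antiproliferative regulator, was the lower one, with changes of -0.65 in Srf-null, -0.57 in rescue and -0.30 in wild-type cells. Of 24 secreted and surface proteins 13 were tested, with 4 higher in each line, 0 without overlap and a median of 0.67. None of these 66 genes passed the adjusted test. Genes reached the test only when above the floor on 2 arrays, so the counts leave out 11 listed genes that were dim and 18 without a probe set.

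**Figure D3:**
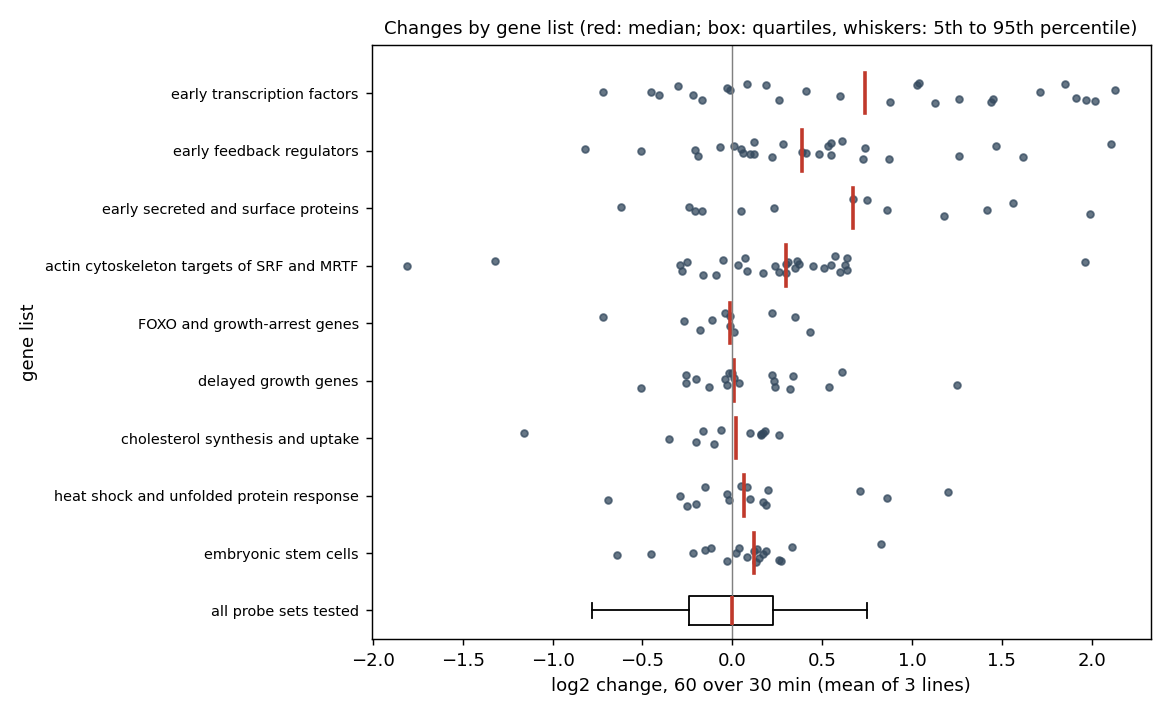
Mean log2 change of the 3 lines at 60 over 30 min (horizontal axis) for the tested genes of 9 lists (vertical axis; points are genes, red bars medians) and for all 8461 probe sets (box of quartiles, whiskers at the 5th and 95th percentiles). The medians of the early lists, 0.74, 0.39 and 0.67, lie right of 0, and those of the delayed growth, cholesterol and FOXO lists lie at 0.01, 0.02 and -0.01.

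The cytoskeletal targets of SRF and MRTF were mixed. Of 38 listed, 29 were tested, with 7 (24.1%) higher in each line, 2 (6.9%) lower and a median of 0.3. Over all 8461 probe sets, 10.4% were higher and 10.7% lower in each line. Cnn1, the actin-binding protein calponin, read 1749 in Srf-null, 835 in rescue and 1596 in wild-type cells at 60 min, against 839, 5.7 and 555 at 30 min, with its largest change in rescue cells, where the 30 min array was below the floor. Vcl, the adhesion protein vinculin, had changes of -0.86 in Srf-null, 0.29 in rescue and 0.78 in wild-type cells, and Actg1, cytoplasmic gamma-actin, of -0.78 in Srf-null, -0.17 in rescue and 0.10 in wild-type cells, where the level at 60 min was 7327 in Srf-null, 32948 in rescue and 30080.1 in wild-type cells. Actb had changes of 1.63 in Srf-null, 0.14 in rescue and -0.98 in wild-type cells on a probe set that can match several actins. Its mean there was 0.26, and a second probe set of Actb had a mean of -0.26. Actg2, smooth-muscle gamma-actin, was read by a probe set that can also match several actins. It read 4211 in Srf-null, 1499.7 in rescue and 1557 in wild-type cells at 60 min, against 5622, 7179 and 10551 at 30 min. All 3 values of Actg2 at 60 min lay below those at 30 min, and its changes were -0.42 in Srf-null, -2.26 in rescue and -2.76 in wild-type cells.

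The other lists are given beside the same 10.4% of probe sets higher and 10.7% lower in each line. Of 19 tested delayed growth genes 4 (21.1%) were higher in each line, among them Slc3a2 and Slc7a5, the 2 chains of a large neutral amino acid transporter, with means of 0.54 ± 0.15 and 0.61 ± 0.17 (SE, n = 3 pairs). Another of the 4, Eif4e, was under the floor on every 30 min array. It was tested only because of its 60 min arrays, so its direction was fixed by the filter. In the cholesterol list 1 of 12 genes (8.33%) was higher and 2 (16.7%) lower in each line, and Mvd, a mevalonate pathway enzyme, had changes of -0.21 in Srf-null, -1.08 in rescue and -2.19 in wild-type cells. Of 16 heat shock and unfolded protein response genes 3 (18.8%) were higher in each line, among them Herpud1, an endoplasmic reticulum stress gene, by 2.11 in Srf-null, 0.67 in rescue and 0.81 in wild-type cells. Of 11 FOXO and growth-arrest genes 1 (9.09%) was higher and 1 (9.09%) lower. The ES cell markers had a summed level of 119707 to 144968 at 60 min and 103632 to 141512 at 30 min, and 1 of 19 was higher in each line. Pou5f1, the core pluripotency factor Oct4, read 18397 in Srf-null, 26003 in rescue and 23991 in wild-type cells at 60 min, against 27191, 18911 and 17074 at 30 min, high on all 6 arrays.

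Markers of other cell types were read as well. The 16 fibroblast feeder markers summed to 6340 to 7245 at 60 min, against 5168 to 6016 at 30 min, with Col1a2, Postn, Mmp2, Pdgfra and Pdgfrb below the floor on all 6 arrays. Of the 10 tested, 1 was higher and 1 lower with groups apart, beside 3.62% of all probe sets higher and 3.44% lower. Fbln1, a matrix protein, read 1486 in Srf-null, 2580.4 in rescue and 2283 in wild-type cells at 60 min, against 625, 1244 and 1181 at 30 min, but a second probe set of it had a mean change of 0.18. The first probe set of Fbln1 had mean changes of -0.74 at 30 over 10 min and 0.35 at 60 over 10 min. Lum, the proteoglycan lumican, was lower, at 48.5 in Srf-null, 166 in rescue and 141 in wild-type cells at 60 min, against 204, 176 and 184 at 30 min. The feeder sums did not overlap between the times, and their part in the results was not tested. The 16 endoderm markers summed to 20573 to 25366 at 60 min, against 23408 to 27241 at 30 min, with Foxa2, Apoa1 and Hnf4a below the floor throughout. The 9 trophoblast markers summed to 1302 to 16894 at 60 min, against 1299.9 to 9134 at 30 min, with Hand1 and Tpbpa below the floor throughout.

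Chosen by size alone, the 15 genes ranked highest by the smallest of their 3 changes, among those higher in each line, included 5 genes of the early lists (Rhob, Zfp36, Dusp1, Plaur and Atf3), Cnn1 of the cytoskeletal list and 9 genes of no list. Of these, Pou3f1, a POU-domain factor of neural and epiblast cells, read 295 in Srf-null, 222 in rescue and 342 in wild-type cells at 60 min, against 13.3, 41 and -169 at 30 min. Tyk2, a Janus kinase, read 1163 in Srf-null, 394 in rescue and 1064 in wild-type cells at 60 min, against 31, 89 and 241 at 30 min. At 10 min Pou3f1 read -61.1 in Srf-null, 636 in rescue and 326 in wild-type cells, and Tyk2 631, 105 and 871.5. At 30 min Pou3f1 and Gatd3a were under the floor on all 3 arrays. Both were tested only because of their 60 min arrays, so their direction was fixed by the filter. Tyk2 was under the floor on 1 of the 30 min arrays, and Uggt1, Apln, Il3ra, Mbd2 and Aoc3 on at least 1. Ppp2r2b, a regulatory subunit of protein phosphatase 2A, was above the floor on all 6 arrays, at 1559 in Srf-null, 857 in rescue and 1040.1 in wild-type cells at 60 min, against 641, 378 and 336 at 30 min. Mbd2, a reader of methylated DNA, had changes of 1.97 in Srf-null, 1.66 in rescue and 1.16 in wild-type cells, and Aoc3, an amine oxidase, of 2.37 in Srf-null, 1.09 in rescue and 1.08 in wild-type cells.

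Of the genes lower at 60 min, 21 probe sets (0.248%) were at least 2-fold lower in each line, and the 8 named by size were Rhbdl3, Sphk2, Pafah2, Pmfbp1, Smpd1, Eloc, Rgs11 and Fabp6. Eloc, elongin C, read 156 in Srf-null, 299 in rescue and 167 in wild-type cells at 60 min, against 466, 1134 and 1552 at 30 min, but a second probe set read 867, 1439 and 1440.0 at 60 min against 1280.4, 1307 and 2097 at 30 min, a mean change of -0.32. Sphk2, a sphingosine kinase, was lower on 1 probe set, with a mean of -2.71, and higher on another, with a mean of 0.5. Pafah2, a phospholipase that acts on platelet-activating factor, had 1 probe set, at 188 in Srf-null, -13.5 in rescue and 139 in wild-type cells at 60 min, against 718, 474 and 562 at 30 min. Apart from Eloc, these genes read under the floor on at least 1 of the 60 min arrays, so the size of their change depends on the floor. Rhbdl3 and Rgs11 were under it on every 60 min array. These genes were tested only because of their 30 min arrays, so their direction was fixed by the filter.

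The step was also set beside its neighbours in time, which share arrays with it. For 30 against 10 min, 0 of 8429 probe sets (0%) were called by limma and 134 (1.59%) had an unadjusted p under 0.05. For 180 against 60 min, 0 of 8519 (0%) were called and 315 (3.7%) had an unadjusted p under 0.05. The difference between the 60 against 30 min step and the 30 against 10 min step was tested on 8868 probe sets, with 0 (0%) called by limma and 311 (3.51%) at an unadjusted p under 0.05. Mean changes at 30 over 10 min were -0.16 for Rhob, -0.15 for Dusp1, 0.02 for Fosb and 0.36 for Egr1, where Egr1 read 343 in Srf-null, 882 in rescue and 503 in wild-type cells at 10 min. At 180 over 60 min the same genes had mean changes of 0.43, 0.63, -0.05 and 0.44. Among genes chosen by size, means at 30 over 10 min were -1.61 for Pou3f1, -1.66 for Tyk2, -1.69 for Uggt1 and -1.37 for Apln. Their means at 60 over 10 min were 0.11, 1.03, 0.11 and 0.94. Il3ra and Ppp2r2b had -0.67 and -0.1 at 30 over 10 min, and Mbd2 and Aoc3 0.72 and 0.58. Of the genes lower at 60 min, Eloc had a mean of 1.99 at 30 over 10 min and Rhbdl3 one of -0.05. For 60 against 10 min, 0 of 8428 (0%) were called, 422 (5.01%) had an unadjusted p under 0.05, and the smallest adjusted p was 0.0717 by limma. Dusp1, at a mean of 1.33 ± 0.12 (SE, n = 3 pairs), was among the probe sets at that value, as were 2 of Taf1d, a subunit of an RNA polymerase I factor.

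The last comparison set the step in Srf-null cells against the mean step of rescue and wild-type cells. Of 9198 probe sets, 0 (0%) were called by limma and 1017 (11.1%) had an unadjusted p under 0.05, the smallest adjusted p being 0.126. Fosb differed by -1.88 ± 0.27 (SE) at an adjusted p of 0.152 and Ccn2 by -3.45 ± 0.59 at 0.197. Ccn1 differed by -2.99 ± 0.76 at 0.329 and Egr1 by -2.10 ± 0.58 at 0.355. Dusp1 differed by -0.29 ± 0.42 (SE) at an adjusted p of 0.865 and Id1 by 1.05 ± 0.88 at 0.732. The 3 early lists held 7 genes at least 2-fold higher in both rescue and wild-type cells with the Srf-null change at least 1 log2 unit below both, Atf3, Ccn1, Ccn2, Egr1, Fosb, Jun and Junb, beside 78 of 8461 probe sets (0.922%). Of these, Jun was tested only because of its 60 min arrays, since it was below the floor on every 30 min array.

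**Figure D4:**
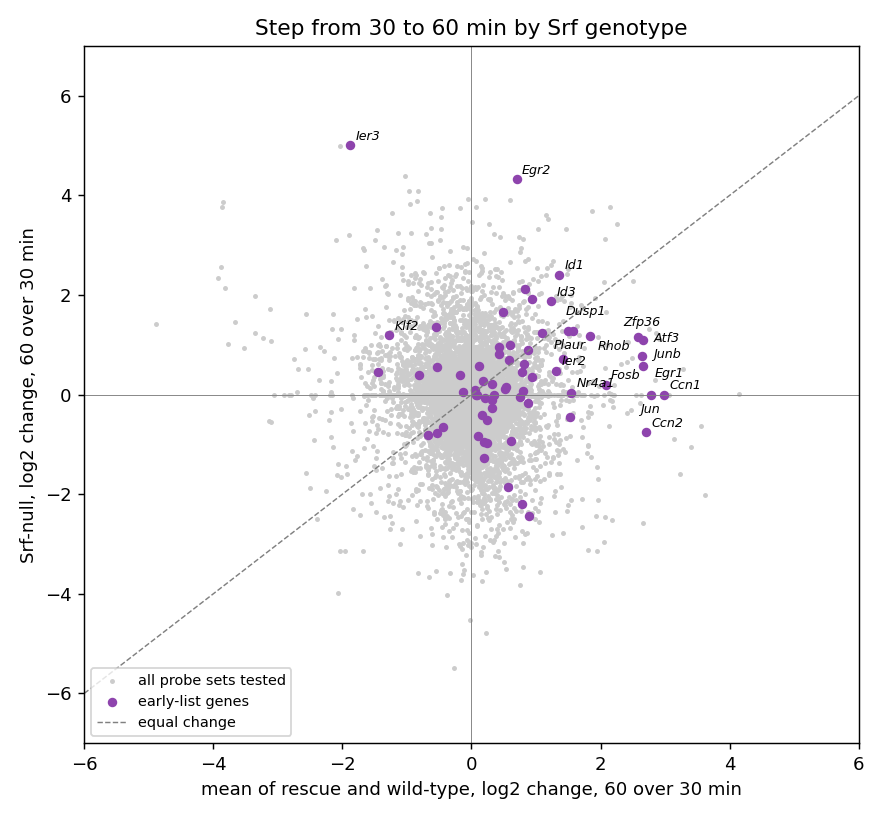
Log2 change at 60 over 30 min in Srf-null cells (vertical axis) against the mean change of rescue and wild-type cells (horizontal axis), for all tested probe sets (grey) and the tested genes of the early lists (purple), with the line of equal change dashed. Egr1, Fosb, Junb, Jun, Ccn1 and Ccn2 lie to the right and below the line, Dusp1 and Plaur near it, and Id1, Egr2 and Ier3 above it.

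The values on arrays with low 18S signal are given for 4 of these genes, with no test, since the threshold was set after the data were seen. In Srf-null cells the low arrays were those of 30 and 180 min, where Egr1 read 176 and 201 and Fosb 1413 and 1571. In wild-type cells the arrays of 0, 10 and 60 min were low, where Egr1 read -12.5, 503 and 9120.2, and Fosb 1947, 1250.2 and 6059. In rescue cells the arrays of 10, 30 and 60 min were low, where Egr1 read 882, 1208 and 8094. Fosb read 1402, 1249.7 and 4956 on those 3 arrays. The Srf-null line had no low array at 60 min, so its step could not be read this way. The Srf-null difference was also fitted over 12 arrays with the 18S signal as a term, added after seeing the data. The counts of that fit are not given here. Over the 2 low Srf-null arrays Dusp1 read 1228 at 30 min and 5413 at 180 min, and Rhob 641 and 2177.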

How the data were processed

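Total RNA of 15 ES cell samples (3 lines, 5 times in FBS) was hybridised to Affymetrix MGU74A arrays, per the labels' descriptions. The values the authors deposited are intensities on a linear scale for 12654 probe sets, with negative values; the software, background subtraction and scaling behind them are not given in the sources. The number of arrays limits the precision.

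Intensities were quantile-normalized over all 15 arrays, values under the 40th percentile (84.98, log2 6.41) were raised to it, and log2 was taken. Array controls (66) were left out, and a probe set entered a fit when 2 or more of its arrays exceeded the floor. The fits were made in R 4.3.3 by limma 3.58.1 (eBayes with an intensity trend), with line as a block, Benjamini-Hochberg adjustment over all tested probe sets and a threshold of 0.05. The pairing comes from the labels: same-numbered arrays are 1 cell line. Steps were also compared in 1 fit over the 9 arrays of 10 to 60 min, and by Srf genotype over 12 arrays, where the lone Srf-null arrays are assumed to vary like the others. On simulated arrays the check was that estimates lay near the changes added. How many added changes were called is not given here, so the check does not bear on the empty list of calls.

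Gene names come from the platform's annotation: 10298 carry 1 gene symbol, 363 several and 1993 none, and 10279 matched RefSeq by gene identifier. A suffix _f, _s, _r, _i or _g marks a probe set chosen under relaxed rules, which can match more than 1 transcript. The probe sets read for Zfp36, Atf3, Junb and Cnn1, among others, carry such a suffix. Listed genes were read by their brightest probe set. Genes were named by 3 rules: the largest changes of 1 direction in all lines (15 higher, 8 lower), up to 4 members of each list by p, and a fixed set of early genes. Members and lists were chosen with earlier results of these data known. Arrays were called high in 18S above 10000, a value set after the data were seen. No 2 of the 105 pairs of arrays were identical.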

Additional observations from a re-analysis of the deposited data

Results flagged for a closer look

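Ccn2 had opposite directions by Srf genotype: its log2 change at 60 over 30 min was -0.75 in Srf-null cells, against 2.53 in rescue and 2.88 in wild-type cells. Tested by limma over 12 arrays, the difference was -3.45 ± 0.59 (SE) at an adjusted p of 0.197, so it was not called. At 180 min Ccn2 read 2926 in Srf-null, 7419.8 in rescue and 9896 in wild-type cells, so it was high in all 3 lines by then. Klf2, a Kruppel-like factor of naive ES cells, went the other way, at 1.19 in Srf-null cells against -0.72 in rescue and -1.83 in wild-type cells. Its difference was 2.47 ± 0.67 (SE) at an adjusted p of 0.35, and it was not called. Klf2 read 3549 on the Srf-null 60 min array and 5181 on the wild-type 30 min array, the 2 arrays with high 18S signal, and its other 4 values lay between 939 and 1554. The 60 against 30 min fits with the 18S signal as a term included Klf2 and did not call it. Their estimates for Klf2 are not given here, and the part of the 18S signal in its difference between lines was not read from them.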

How the results depend on the processing

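With 3 arrays a group and 1 per line and time, the 60 against 30 min fit called 0 probe sets higher and 0 lower by limma. The count of probe sets called higher was 2 in the additive model over 12 arrays (Rhob and Dusp1), 0 to 1 when each line was left out in turn (Egr1, without Srf-null), and, with the 18S signal as a term added after seeing the data, 6 higher and 1 lower over 12 arrays (Dusp1 at 1.47 ± 0.14, Rhob, Atf4, Epb41l4aos and 2 probe sets of Taf1d higher, Actg2 lower) and 1 higher and 5 lower over the 6 arrays (Ier2 higher; Med27, Atf6b, Emp3, C1qbp and 1 unnamed probe set lower). Of the genes lower in that 6-array fit, C1qbp, Med27 and Emp3 were higher at 60 min in Srf-null cells, by 1.41, 1.23 and 1.14. Their changes were -3.14, -1.74 and -1.84 in rescue and -6.63, -4.97 and -4.61 in wild-type cells. Other probe sets of Atf6b and Emp3 had mean changes of -0.04 and -0.36. Without the replicate block, which pairs the arrays by line, 0 were called in the main comparison, and the block changed no other call. Common median scaling called 3 higher and 2 lower for 30 against 10 min and 5 higher and 3 lower for 60 against 10 min. Leaving out a line gave 0 to 1 higher for 180 against 60 min and 0 to 7 higher for 60 against 10 min, the upper values without Srf-null. The Srf-null difference over all 15 arrays called 50 higher and 13 lower, of which 1 of 63, Tnfaip3, was in the early lists. The cause of these differences was not tested. Of the named genes' recomputed log2 changes, 1203 kept direction and side of the threshold, 8 passed it and 22 reversed. Those reversed under common median scaling were Sox2 (-0.24), Vcl (-0.02) and Spry4 (-0.03). With values as deposited, where the median of all probe sets moved by 0.42, they were Ascl2 (0.17), Gata6 (0.23), Lum (0.32), Hspa1a (0.05), Klf2 (0.01), Idi1 (0.2), Dppa3 (0.05) and Nsdhl (0.11), each under that shift. With the floor at the 60th percentile Ier3 was -0.26. Over the fits that leave out a line, the range was -0.42 to 0.89 for Actb, -0.07 to 0.32 for Btg2, -0.28 to 0.62 for Gadd45g, -0.08 to 0.13 for Tfap2c, -1.88 to 2.27 for Ier3, -0.28 to 0.54 for Vcl, -1.28 to 0.23 for Klf2 and -0.17 to 0.14 for Spry4. The causes were not tested. A floor at the 20th percentile was not run, since that percentile has no log. Values near the floor limit the sizes given for dim genes.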

Other observations

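Genes of the ATF4 pathway, which answers amino acid shortage and endoplasmic reticulum stress, were mostly higher at 60 min. The list was chosen after values were seen, so its counts are a description: of 27 genes tested, 17 (63%) were higher in each line, beside 10.4% of all 8461 probe sets, and 11 (40.7%) were higher without overlap between the times, beside 3.62%. None was lower in each line, beside 10.7%, and the median change was 0.35. Atf4, the factor itself, read 14954 in Srf-null, 15717 in rescue and 15927 in wild-type cells at 60 min, against 8714, 8891 and 8160.3 at 30 min. Its groups were apart in every line by a similar amount, with changes of 0.78 in Srf-null, 0.82 in rescue and 0.96 in wild-type cells. Psat1, a serine synthesis enzyme, read 11279 in Srf-null, 19198 in rescue and 16318 in wild-type cells at 60 min, against 8429.7, 10913 and 8756 at 30 min, and Mthfd2, a mitochondrial folate enzyme, read 7892 in Srf-null, 5622 in rescue and 4301 in wild-type cells at 60 min, against 3679, 3874 and 2961 at 30 min. At 10 min Psat1 read 9061 in Srf-null, 14998.5 in rescue and 15031.5 in wild-type cells. In each line its 30 min value was the lowest of those at 10, 30 and 60 min. Sars, seryl-tRNA synthetase, had changes of 1.65 in Srf-null, 1.10 in rescue and 0.19 in wild-type cells, larger in Srf-null and rescue than in wild-type cells. Ddit3 and Trib3, which ATF4 also drives, had changes of 3.10 in Srf-null, -0.01 in rescue and -0.96 in wild-type cells and of -0.07 in Srf-null, -1.06 in rescue and 0.33 in wild-type cells, so they did not share the direction.

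Host genes of small nucleolar RNAs, many of whose spliced transcripts are short-lived when translation proceeds, were the other list chosen after values were seen. Of 15 tested, 6 (40%) were higher at 60 min in each line, beside 10.4% of all probe sets, and 5 (33.3%) were higher without overlap, beside 3.62%. None was lower in each line, and the median was 0.17. Taf1d read 7742 in Srf-null, 5826 in rescue and 5679 in wild-type cells at 60 min, against 3005, 2416 and 4043 at 30 min, and Snhg5 read 4032 in Srf-null, 3394 in rescue and 2807 in wild-type cells at 60 min, against 1884, 1614 and 2055 at 30 min. Both were higher by over 1 log2 unit in Srf-null and rescue cells and by under 0.5 in wild-type cells, with changes of 1.37 in Srf-null, 1.27 in rescue and 0.49 in wild-type cells for Taf1d. Gas5 had changes of 0.74 in Srf-null, 0.07 in rescue and -0.30 in wild-type cells and Snhg1 of 0.54 in Srf-null, -0.22 in rescue and -0.59 in wild-type cells, with both signs among the lines.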
